A study of Mus musculus with 12 samples.

Results

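The 5 genes described here encode the NF-kappaB family of transcription factors, Rela (p65), Relb, Rel (c-Rel), Nfkb1 (p105, processed to p50) and Nfkb2 (p100, processed to p52). They were chosen by name among the 20409 genes of the deposited tables, all 5 were found there, and each was followed through every library by its gene identifier. The data are maps of retroviral insertions from ORFtag screens in mouse embryonic stem cells. The ORFtag cassette expresses a neomycin resistance gene and a protein tag from a PGK promoter and ends in a splice donor, so that an insertion upstream of or inside a gene can splice the tag to the next exon and express the rest of the protein as a fusion. Insertions were mapped from genomic DNA of sorted cells and of unsorted, transduced cells.

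All libraries came from reporter lines of diploid cells derived from the originally haploid line AN3-12 and selected with G418 after transduction, and every library, sorted or unsorted, carried the cassette in 3 versions, mixed in equal parts, for the 3 reading frames. In the activator screen the tag was TetR, a bacterial DNA-binding domain, and the reporter had 7 TetO sites before the inactive MYLPF promoter and a Puro-IRES-GFP gene in a locus on chromosome 15, and GFP-positive cells were sorted. In the repressor screen the same tag met an active reporter at the same locus, with an EF1 promoter and BFP before the 7 TetO sites and a PGK promoter driving Puro-IRES-GFP, and GFP-negative cells were sorted. The PTGR screen looked for regulators that act after transcription. Its tag was the λN peptide, its cell line also carried a tamoxifen-inducible Cre recombinase (CreERT2), and its randomly integrated Puro-IRES-GFP reporter carried 10 boxB sites in its mRNA. These cells went through 4 sorts for low GFP, removal of the boxB sites by Cre and a last sort for higher GFP. Each screen had 2 sorted and 2 unsorted libraries, 12 libraries in all. The activator and PTGR lines were single clones. The study's methods describe the replicates of a screen as biological. The 2 repressor sorted libraries shared 4892 listed insertion positions, 18.2% of those of replicate 1 and 26% of those of replicate 2. The activator sorted pair shared 402 and the PTGR sorted pair 470. Why the repressor pair shared more was not tested. The libraries are DNA maps and hold no expression by which the cell type could be checked.

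NF-kappaB proteins bind DNA as dimers through the Rel homology domain in their N-terminal part. Rela, Relb and Rel carry transactivation domains in their C-terminal part, whereas Nfkb1 and Nfkb2 are made as precursors with C-terminal ankyrin repeats and, once processed, have no transactivation domain of their own. In resting cells the dimers are held in the cytoplasm by IkB proteins or by the precursors, and they are released by IkB kinase signalling, Rela and Rel mainly in the canonical and Relb in the non-canonical pathway.

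Each position within 200 kb of its assigned exon was counted once per library as 1 insertion. By this count the sorted libraries held 14705 to 60980 insertions and the unsorted libraries 54088 to 233799. The activator sorted libraries, on which most of the results below rest, were the shallowest of their kind together with repressor sorted replicate 2, with 17397 and 14705 insertions. Levels are given as insertions per 10000 insertions of the library. Intervals of levels and percentages are 95% Wilson intervals. They cover counting error only, because insertions of an expanded clone and PCR copies are not independent. The sum of the 6 unsorted libraries, 1022126 insertions, served as the background. The odds ratio of a gene compares its share of the sorted insertions with its share of the background. Intervals of log2 odds ratios are 95% normal intervals from the standard error (SE), which also covers counting error only. A gene was called at a Benjamini-Hochberg adjusted p below 0.001 in a one-sided Fisher's exact test together with a log2 odds ratio no lower than 1, among genes with at least 3 sorted insertions.

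The cassette reached all 5 genes without selection, to different extents. The background held 114 insertions at Rel, 66 at Relb, 59 at Rela and 44 at Nfkb1, and 4 at Nfkb2, against a median of 15 over all genes. Nfkb2 thus had too few background insertions for a firm ratio in any screen.

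Every insertion is assigned in the files to the nearest downstream exon with a splice acceptor, and this exon sets which part of the protein a fusion can hold. The acceptors on which the later comparison of exons turns are shown here, namely every one that took at least 2 activator sorted insertions, and Relb exon 4, which took none. Each line gives the last 20 intron bases in lower case and the first exon bases in capitals, 5′ to 3′ on the strand of the gene, from the RefSeq sequence of GRCm38.p6.
Rela exon 2, chr19:5638412-5638441, plus strand: gccttgtctttccctttcagATCTGTTTCC
Rela exon 7, chr19:5641161-5641190, plus strand: tgagaccgctgatgtttcagGGGCCCCCAA
Rela exon 9, chr19:5645305-5645334, plus strand: catccatattgctttcccagATGATCGCCA
Rela exon 10, chr19:5645493-5645522, plus strand: acttagcttttgccctgtagGACCAACTGA
Relb exon 2, chr7:19627961-19627990, minus strand: tccaggtctccatctcacagGTTCCAGTGA
Relb exon 3 as assigned (Relb-203), chr7:19622927-19622956, minus strand: ttcttttctcttccttccacAGATGAATTG
Relb exon 3 of Relb-202, chr7:19622926-19622954, minus strand: cttttctcttccttccacagATGAATTGG
Relb exon 4, chr7:19619833-19619862, minus strand: ctcctctgtttgtcgcgcagAAATCATCGA
Relb exon 12, chr7:19606932-19606961, minus strand: agctattctctcctcatcagGCCTGTTCCT
Rel exon 2, chr11:23761146-23761175, minus strand: gttctttttaaaattttcagGTGGATATAA
Nfkb1 exon 2, chr3:135669330-135669359, minus strand: tgtatactttatgtgtgcagGTACCCTCAG
Nfkb2 exon 12, chr19:46308609-46308638, plus strand: ccgtttctctttcctcctagACAAGGAGGA
In all but one of these lines the intron ends in AG, the usual last bases of an intron. The exception is Relb exon 3 as assigned, whose boundary in transcript Relb-203 follows AC. In transcript Relb-202 the same small exon starts 2 bases later, directly after AG, and is 9 bp long instead of 11 bp.

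In the activator screen, Rela and Relb were among the strongly enriched genes, Rel was enriched less, and Nfkb1 and Nfkb2 were not called. This comparison asks which tagged proteins were over-represented in cells that had gained GFP. Of the 2842 genes tested 132 were called (4.64%). Of the 5 members 4 had enough sorted insertions to be tested and 3 were called.

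**Figure D1:**
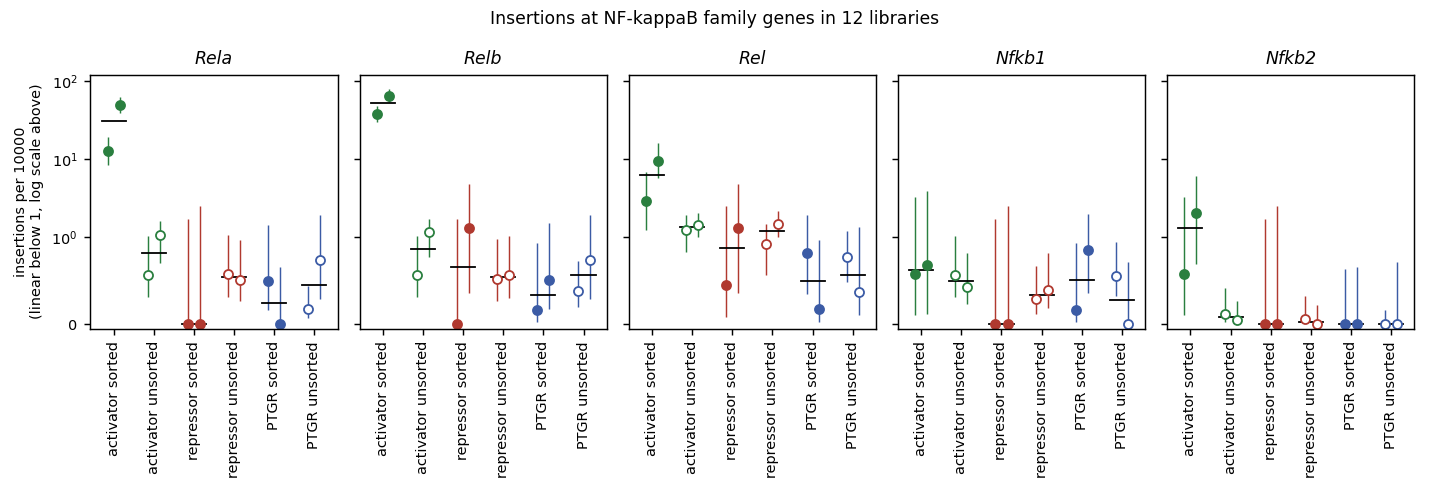
Insertions per 10000 insertions of each library at the 5 genes, with filled points for sorted and open points for unsorted libraries, 95% Wilson intervals and a line at the mean of each pair of replicates. The vertical axis is linear below 1 and logarithmic above it. Both activator sorted libraries lie above all other libraries for Rela, from 12.6, and for Relb, from 37.9.

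Relb, the subunit associated with the non-canonical pathway, had the most sorted insertions of the family. It lies at chr7:19606217-19629438 on the minus strand (GRCm38, GENCODE vM21; ENSMUSG00000002983). Activator sorted replicate 1 held 66 insertions at Relb (37.9 per 10000) and replicate 2 held 95 (64.6 per 10000). The activator unsorted replicates held 10 (0.57 per 10000) and 24 (1.16 per 10000). The other unsorted libraries held 9 and 10 (repressor screen) and 9 and 4 (PTGR screen), so that the 6 unsorted libraries ranged from 0.385 to 1.16 per 10000. Both sorted libraries lay far above this range and did not overlap it. The mean level was 51.3 ± 18.9 per 10000 (SD, n = 2) in the sorted and 0.655 ± 0.27 (SD, n = 6) in the unsorted libraries. The log2 odds ratio was 6.29 ± 0.211 (SE from counting error), a 78.1-fold enrichment, with an adjusted p of 1.61e-185 by Fisher's exact test. By this ratio Relb was number 14 and by sorted insertions number 19 of the 132 called genes. Each sorted replicate alone also passed, with log2 odds ratios of 5.88 and 6.65. Against the activator unsorted libraries alone the log2 odds ratio was 5.83. With the spread between libraries taken into account in edgeR's quasi-likelihood fit to the 4 activator libraries, the log2 fold change was 5.82 and the adjusted p 4.66e-12. By that test 116 of 8000 genes were higher in the sorted libraries at an adjusted p below 0.05 (1.45%).

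Rela encodes p65, the subunit with the best known transactivation domain of the family. It lies at chr19:5637483-5648130 on the plus strand (ENSMUSG00000024927). Activator sorted replicate 1 held 22 insertions at Rela (12.6 per 10000) and replicate 2 held 72 (49 per 10000). The activator unsorted replicates held 10 (0.57 per 10000) and 22 (1.06 per 10000). The repressor unsorted replicates held 10 and 9 insertions and the PTGR unsorted replicates 4 each, and the 6 unsorted libraries ranged from 0.171 to 1.06 per 10000. The sorted libraries again lay above every unsorted library, but they differed more from each other than at Relb. Their mean was 30.8 ± 25.7 per 10000 (SD, n = 2) against 0.604 ± 0.291 (SD, n = 6) in the unsorted libraries. The log2 odds ratio was 5.67 ± 0.24 (SE), a 50.9-fold enrichment, with an adjusted p of 6.29e-99 by Fisher's exact test. By this ratio Rela was number 45 and by sorted insertions number 28 of the 132 called genes. The log2 odds ratio was 4.46 from replicate 1 alone and 6.41 from replicate 2 alone, both called. Against the activator unsorted libraries alone it was 5.14. The edgeR test gave a log2 fold change of 5.13 and an adjusted p of 1.02e-11.

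Rel encodes c-Rel, which is best known from lymphocytes. It lies at chr11:23736847-23770970 on the minus strand (ENSMUSG00000020275). Activator sorted replicate 1 held 5 insertions at Rel (2.87 per 10000) and replicate 2 held 14 (9.52 per 10000). The activator unsorted replicates held 22 (1.25 per 10000) and 30 (1.45 per 10000). The repressor unsorted replicates held 16 and 26, the PTGR unsorted replicates 18 and 2, and the highest unsorted level was 1.47 per 10000. Both sorted libraries were above the unsorted range of 0.37 to 1.47, replicate 1 by a small margin. The log2 odds ratio was 2.41 ± 0.358 (SE), a 5.31-fold enrichment, with an adjusted p of 7.37e-07 by Fisher's exact test, and Rel ranked number 119 of the 132 called genes by this ratio. The call rested on replicate 2: replicate 1 alone gave a log2 odds ratio of 1.37 with an adjusted p of 0.304, and replicate 2 alone 3.09 with an adjusted p of 4.65e-08. The edgeR test gave a log2 fold change of 2.08 with an adjusted p of 0.0127, which passes 0.05 but not 0.001, and DESeq2 gave an adjusted p of 0.066. Against the activator unsorted libraries alone the log2 odds ratio was 2.12.

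The order of enrichment was the same in both replicates, with Relb first, Rela next and Rel last. The log2 odds ratio of Rela was lower than that of Relb by an amount that differed between replicates, at -1.43 in replicate 1 and -0.24 in replicate 2, and these neighbours in the order were not separated beyond the spread of the replicates. Rela exceeded Rel by 3.09 and 3.32, and Relb exceeded Rel by 4.52 and 3.56.

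Nfkb2 encodes the precursor p100. It lies at chr19:46304320-46312385 on the plus strand (ENSMUSG00000025225). Activator sorted replicate 1 held 1 insertion at Nfkb2 and replicate 2 held 3, which is 0.575 and 2.04 per 10000. The activator unsorted replicates held 2 and 1, repressor unsorted replicate 1 held 1 and the other 3 unsorted libraries held 0. The log2 odds ratio of 4.99 ± 1.02 (SE) rests on 4 sorted and 4 background insertions. By Fisher's exact test its adjusted p, 0.00116, was just above the threshold of 0.001, so Nfkb2 was not called. The 4 sorted insertions lay 28 to 68 bp before exon 12. The 3 of replicate 2 lay within 10 bp of each other, at 28 to 38 bp, and the 1 of replicate 1 lay alone at 68 bp. Of the 3 positions of replicate 2, 1 was also present in activator unsorted replicate 2. With positions within 10 bp counted once, an alternative chosen after seeing these positions, the log2 odds ratio was 4.07. It then rested on 2 sorted insertions, below the minimum of 3 for testing. Whether such neighbouring positions are separate insertions was not tested.

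Nfkb1 encodes the precursor p105. It lies at chr3:135584655-135691547 on the minus strand (ENSMUSG00000028163). Each activator sorted replicate held 1 insertion at Nfkb1, 0.575 and 0.68 per 10000, against 10 and 9 in the activator unsorted replicates (0.57 and 0.433 per 10000). The repressor unsorted replicates held 5 and 7 and the PTGR unsorted replicates 13 and 0. The sorted libraries lay close to the highest unsorted level of 0.57, and with 2 sorted insertions Nfkb1 was below the minimum for testing. Its log2 odds ratio of 0.53 ± 1.04 (SE) has a 95% interval from -1.51 to 2.58, so that an enrichment like that of Rela or Relb lies outside it and one like that of Rel lies inside it.

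**Figure D2:**
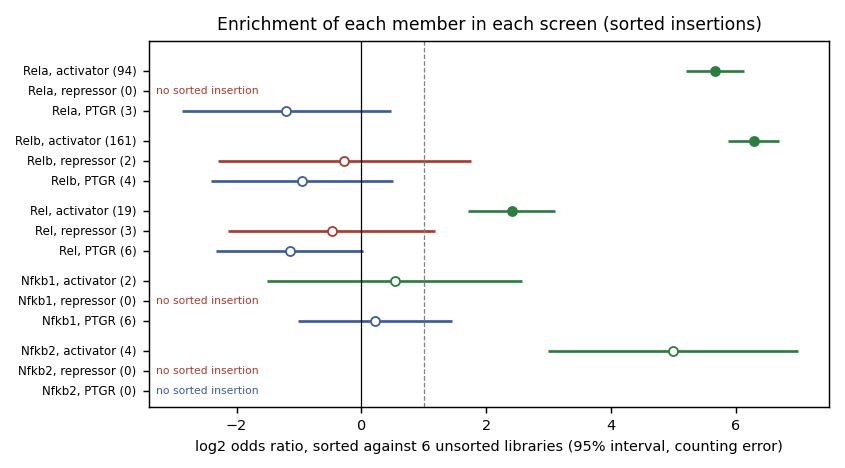
Log2 odds ratio of each gene in each screen with its 95% interval from counting error, and the number of sorted insertions in parentheses. Filled points are called, and the dashed line marks the log2 odds ratio of 1 that a call requires. Rela, Relb and Rel are called in the activator screen, at 5.67, 6.29 and 2.41, and no gene is called in the other screens.

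In the repressor screen none of the 5 genes was called, while 192 of the 2346 genes tested were (8.18%). The repressor sorted replicates held 1 and 2 insertions at Rel and 0 and 2 at Relb, and both held 0 at Rela, Nfkb1 and Nfkb2. Rel, the only member that could be tested there, had a log2 odds ratio of -0.48 ± 0.844 (SE) (Fisher's exact test, adjusted p 1). For Rela, 0 of 37470 sorted insertions allow a level of up to 0.801 per 10000, which is 1.39 times the pooled background level of 0.577 per 10000. A depletion of Rela in GFP-negative cells was therefore not detectable at this depth. For Relb the 95% interval of the log2 odds ratio ran from -2.3 to 1.75.

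In the PTGR screen none was called either, against 62 of 9303 genes tested (0.666%). The 2 PTGR sorted replicates held 5 and 1 insertions at Rel, 1 and 5 at Nfkb1, 1 and 3 at Relb, 3 and 0 at Rela, and none at Nfkb2. The log2 odds ratios were -1.15 for Rel, 0.22 for Nfkb1, -0.95 for Relb and -1.20 for Rela, each with a 95% interval that included 0. Their adjusted p-values in Fisher's exact test were 0.895 for Nfkb1 and 1 for the other 3. The upper ends of these intervals were 0.03 for Rel, 1.45 for Nfkb1, 0.51 for Relb and 0.47 for Rela. At these depths enrichments as large as those in the activator screen were outside the intervals of Rela, Relb and Rel. The negative ratios depended on the background. Against the PTGR unsorted libraries alone the log2 odds ratios were -0.47 for Rel, 0.15 for Nfkb1, -0.43 for Relb and -0.15 for Rela.

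Whether the enrichment differed between screens was tested with an interaction term in edgeR over all 12 libraries. Sorted over unsorted was higher in the activator than in the repressor screen for Rela (adjusted p 2.00e-07) and Relb (adjusted p 1.25e-07), among 12809 genes of which 0.57% were higher in the activator screen at an adjusted p below 0.05. The sorted levels behind this were 29.3 against 0 per 10000 for Rela, at least 36.6-fold higher when the count of 0 is taken as 3, and 50.2 against 0.534 per 10000 for Relb. Against the PTGR screen, where 0.586% of genes were higher in the activator screen, the difference also passed for Rela (adjusted p 0.000397) and Relb (adjusted p 5.13e-09). Rel did not pass, with adjusted p-values of 0.479 against the repressor and 0.376 against the PTGR screen, so that its call in the activator screen was not shown to be particular to that screen by this test. In a two-sided Fisher's exact test of sorted against sorted libraries, which leaves out the spread between libraries, the difference for Rel passed against both (adjusted p 0.00285 and 6.82e-07). Nfkb1 did not pass in either pair. Nfkb2 had too few insertions for the interaction test. Between the repressor and PTGR screens, where 1.38% of genes differed in either direction, no member passed.

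In the activator screen the strand of the insertions at the 5 genes together differed between sorted and unsorted cells. An insertion in the reversed orientation has its splice donor pointing away from the gene and should not tag it, and reversed insertions were assigned in the files by the same rule with the strand turned. Of the 285 activator sorted insertions at the 5 genes, 280 were in the sense orientation (98.2%, 95% interval 96 to 99.2), against 287 of 482 in the background (59.5%, 55.1 to 63.8). The sense share was 62.5% in the repressor sorted (5 of 8, 30.6 to 86.3) and 42.2% in the PTGR sorted libraries (19 of 45, 29 to 56.7). Over all genes the sense share was 51.9% in the activator sorted libraries and 50.2% in the background. The reversed counts in the 2 activator sorted replicates were 2 and 0 at Relb, 1 and 1 at Nfkb1, 0 and 1 at Rel, and 0 in both at Rela and Nfkb2. Of the 280 sense insertions 161 were at Relb and 94 at Rela, so the pooled share largely restates their enrichment. At Nfkb1 the sense share was 50% in the activator sorted libraries and 47.8% in the background. No member was called for reversed insertions in any screen, where 3.14% of tested genes were called in the activator, 5.61% in the repressor and 0.5% in the PTGR screen. The tested members were Rela, Rel and Nfkb1 in the PTGR screen, with 8, 7 and 9 reversed insertions and adjusted p-values of 0.319, 1 and 0.629 in Fisher's exact test. In the sense assignment all reversed insertions at a member belonged to its neighbour on the other strand, which was Kat5 for Rela (34 insertions), Gm19345 for Relb (46), Bcl11a for Rel (86) and Slc39a8 for Nfkb1 (60).

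The insertions reached the 3 enriched genes from different places. At Relb nearly all lay inside the gene, 154 of 161 in the sorted activator libraries (95.7%, 91.3 to 97.9) and 64 of 66 in the background (97%, 89.6 to 99.2), with median distances of 1867 bp and 2264.5 bp to the assigned exon. At Rela most lay upstream of the gene. Of the 94 sorted insertions, 50 lay over 10 and up to 20 kb and 25 over 20 kb upstream of the annotated start, against 31 and 15 of 59 in the background, or 53.2% and 26.6% against 52.5% and 25.4%. The replicates differed, since all 22 insertions of replicate 1 lay over 10 kb upstream, while replicate 2 had 11 within 10 kb upstream and 8 inside the gene.

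At Rel the background and the sorted insertions came from different places. In the background 111 of 114 insertions (97.4%, 92.5 to 99.1) lay over 20 kb upstream of the gene, at a median distance of 42322.5 bp from exon 2. In the activator sorted libraries 9 of 19 did (47.4%, 27.3 to 68.3), while 4 lay within 10 kb upstream and 6 inside the gene. Inside the gene or within 10 kb upstream there were thus 10 sorted insertions, 1 of them in replicate 1 and 9 in replicate 2, and 2 background insertions. The 3 repressor sorted and 6 PTGR sorted insertions at Rel all lay over 20 kb upstream, as in the background. These distance classes were chosen after the positions were seen and were not tested.

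**Figure D3:**
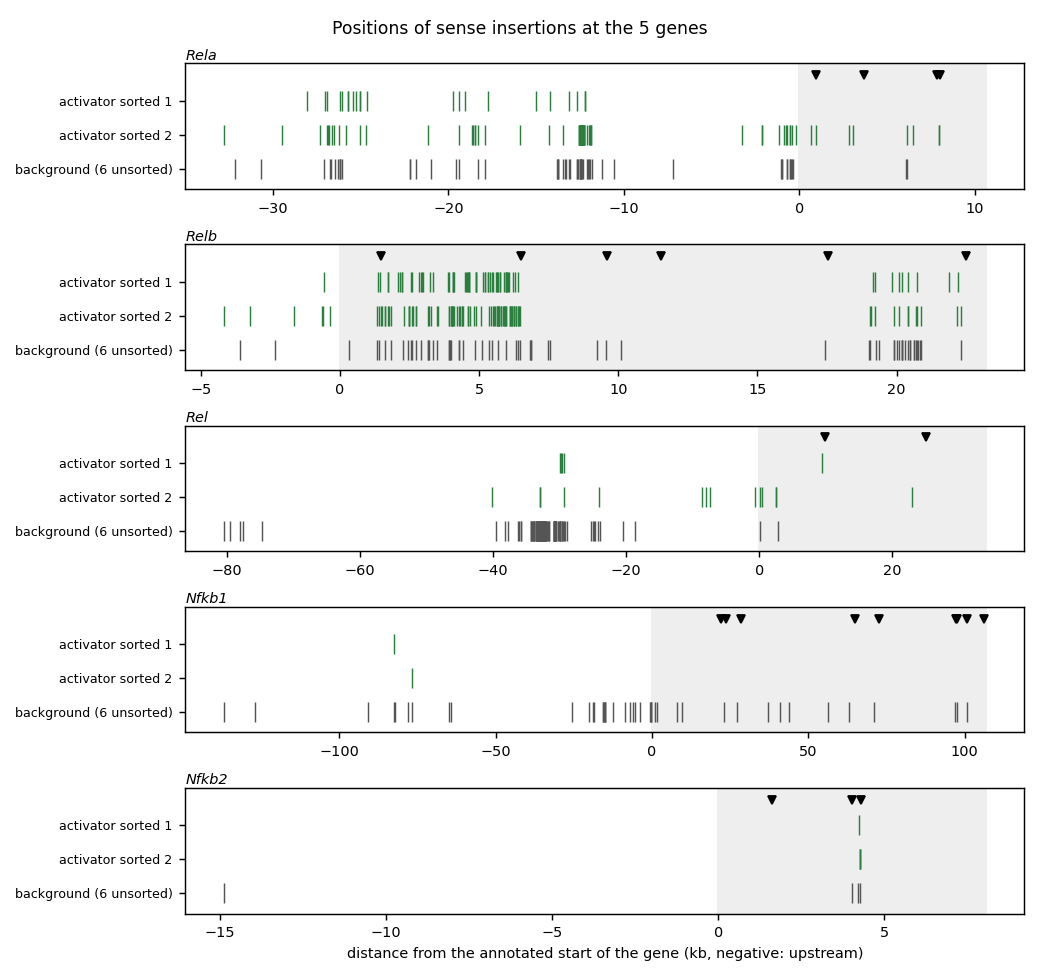
Each stroke is 1 sense insertion, placed by its distance in kb from the annotated start of the gene, negative upstream, with the gene shaded and assigned exons as triangles. The rows are the 2 activator sorted libraries and the 6 unsorted libraries together. Rela insertions lie mostly upstream of the gene and Relb insertions inside it, and at Rel 111 of the 114 background insertions lie over 20 kb upstream.

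Most activator sorted positions were absent from the unsorted libraries, at these genes as over the whole lists. Over the whole lists this held for 89.9% of the positions of replicate 1 and 77% of those of replicate 2. Of the distinct activator sorted positions, 82 of 94 at Rela (87.2%), 140 of 156 at Relb (89.7%) and 16 of 19 at Rel (84.2%) were absent from all 6 unsorted libraries, beside 84.4% of the 40205 distinct positions listed for both activator sorted libraries. The sorted replicates shared 5 positions at Relb and none at Rela or Rel, and over the whole lists they shared 402, which is 1.76% of the positions of replicate 1 and 2.26% of those of replicate 2. With positions within 10 bp merged, Rela, Relb and Rel were still called, with log2 odds ratios of 5.52, 6.07 and 2.44.

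The exon that follows an insertion sets the start of the fusion, as far as the splicing follows the assignment. Exon 2 of Rela starts after 2 whole codons, so that 546 of the 549 residues would be kept (99.5%). Exon 2 of Rel leaves 584 of 588 residues (99.3%) and exon 2 of Relb 540 of 558 (96.8%, Relb-202). Exon 3 of Relb leaves 524 residues (93.9%, Relb-202) and exon 4 nearly as many, 521 (93.4%, Relb-202). The last exon of Relb, exon 12, leaves only 128 of 558 (22.9%), the C-terminal end without the Rel homology domain.

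Rela and Rel were tagged almost only at exon 2, in sorted as in unsorted cells, and the test of exon 2 against later exons passed for none of the 3 called members. At Rela 88 of 94 activator sorted insertions were assigned to exon 2 (93.6%, 86.8 to 97) and 57 of 59 background insertions (96.6%, 88.5 to 99.1) (adjusted p 0.783, two-sided Fisher's exact test over 3 genes). The other 6 sorted insertions, all in replicate 2, lay 2 each before exons 7, 9 and 10, which leave 362, 256 and 229 of the 549 residues. At Rel exon 2 took 18 of the 19 sorted insertions, against 114 of 114 in the background (adjusted p 0.429). The remaining insertion lay before exon 6, which leaves 409 of 588 residues.

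At Relb the share of exon 2 was 6.83% (11 of 161, 3.86 to 11.8) in the sorted and 7.58% (5 of 66, 3.28 to 16.5) in the background (adjusted p 0.783). The later exons differed in a way that the test of exon 2 does not cover, and that is given here as a description. The small exon 3 took 129 of 161 sorted insertions (80.1%, 73.3 to 85.6), with 54 of 66 in replicate 1 and 75 of 95 in replicate 2, against 29 of 66 in the background (43.9%, 32.6 to 55.9). The last exon took 21 of 161 (13%, 8.69 to 19.1), with 9 in replicate 1 and 12 in replicate 2, against 23 of 66 (34.8%, 24.5 to 46.9). Exon 4 took 0 of 161 sorted and 7 of 66 background insertions, and exons 5 and 10 took 0 sorted and 1 background insertion each. Against all insertions of the libraries, exon 3 went from 0.284 to 40.2 per 10000, a log2 odds ratio of 7.15 ± 0.297 (SE), and the last exon from 0.225 to 6.54 per 10000, a log2 odds ratio of 4.86 ± 0.436 (SE). Insertions before the last exon alone were thus also more frequent in sorted cells, 29.1-fold, though these would leave only the C-terminal part of Relb.

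**Figure D4:**
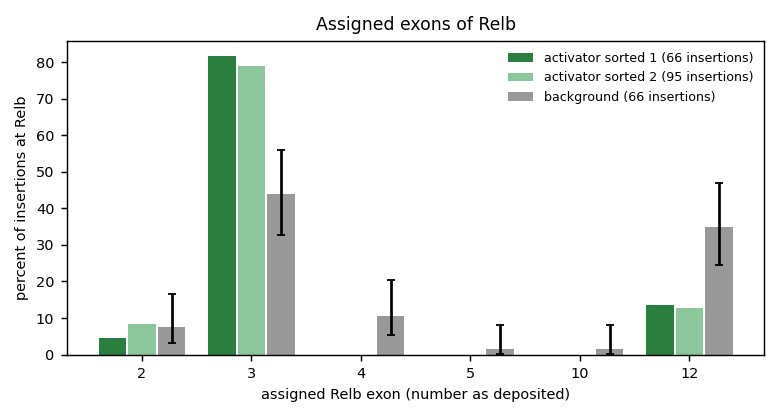
Percent of the insertions at Relb assigned to each exon in the 2 activator sorted libraries and in the background, with 95% Wilson intervals on the background bars. Exon 3 holds 81.8% and 78.9% of the sorted insertions and 43.9% of the background, and exon 12 holds 13.6% and 12.6% against 34.8%.

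The 4 sorted insertions at Nfkb2 were all assigned to exon 12, as were 2 of its 4 background insertions. This exon leaves 568 of 899 residues (63.2%), the part that holds the ankyrin repeats without most of the Rel homology domain. Both sorted insertions at Nfkb1 lay far upstream, 76822 and 82486 bp before the annotated start, and were assigned to the noncoding exon 2, while 15 of its 44 background insertions lay inside the gene.

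The position of the acceptors within the codon bears on which of the 3 cassette versions can give an in-frame fusion. Of the 73 acceptors behind coding sequence in the main transcripts of the 5 genes, 47 (64.4%) lie after the first base of a codon, with 8 of 10 in Rela, 9 of 11 in Relb, 7 of 9 in Rel, 12 of 22 in Nfkb1 and 11 of 21 in Nfkb2. With the exon 3 boundary of Relb-202, all 278 activator sorted insertions at such acceptors preceded one of this kind, and so did 241 of 252 background insertions (95.6%), while 2 sorted and 35 background insertions had no coding sequence before their exon. With the boundary of Relb-203, as assigned in the files, the 129 sorted insertions at Relb exon 3 would instead follow the second base of a codon. The share over all genes was not computed, and the frame of the cassette at each insertion is not in the insertion lists.

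Other genes of the pathway were read from a list of 60 genes in 7 groups, all of which had background insertions. In the activator screen 16 were tested and 3 were called, all among the nuclear partners that NF-kappaB works with at promoters. In the PTGR screen 36 were tested and 4 were called. These are 18.8% and 11.1% of those tested, beside 4.64% and 0.666% of all tested genes. The list was chosen with earlier results of these data known, and these shares were not tested. The median log2 odds ratio of the tested genes was 0.17 (activator) and 0.16 (PTGR), with -0.14 and 0.14 over all tested genes. The other 44 and 24 genes had fewer than 3 sorted insertions in the respective screen, and their enrichment was not tested.

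The activator calls were the acetyltransferases Ep300 and Crebbp, which bind Rela, and the nuclear receptor coactivator Ncoa1. Ep300 had 149 and 240 insertions in the sorted replicates and 290 in the background, a log2 odds ratio of 5.43 ± 0.112 (SE). Crebbp had 17 and 30 against 184, with a log2 odds ratio of 3.03 ± 0.236 (SE). Ncoa1 had 14 and 25 against 508, with a log2 odds ratio of 1.29 ± 0.24 (SE), the lowest of the 3. All 3 also passed edgeR at an adjusted p below 0.05 (2.86e-06, 3.59e-07 and 0.03). None of the inhibitors (0 of 3 tested), adaptors and ligases (0 of 3), negative regulators (0 of 2), receptors (0 of 2) or NFAT relatives with a Rel homology domain (0 of 2) was called, and no kinase could be tested. Among genes not called in any screen, Commd1, a negative regulator, and Kat2b, an acetyltransferase, had the most sorted insertions in each of the 3 screens. There they had 10 and 6 in the activator screen, with log2 odds ratios of -0.56 and -1.55.

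In the repressor screen Commd1 had 15 and Kat2b 9 sorted insertions (log2 odds ratios -0.20 and -1.19). In the PTGR screen the calls came from cytoplasmic steps of the pathway and from Ep300. Traf2, an adaptor of TNF receptors, had 15 and 28 insertions in the sorted replicates and 25 in the background, with a log2 odds ratio of 3.88 ± 0.363 (SE). Ikbkg, the regulatory subunit of the IkB kinase, had 30 and 21 against 78, with a log2 odds ratio of 2.48 ± 0.26 (SE). Tnip1, a partner of the deubiquitinase A20, had 74 and 46 against 213, with a log2 odds ratio of 2.27 ± 0.165 (SE). Ep300 had 107 and 70 against 290, with a log2 odds ratio of 2.39 ± 0.138 (SE). With edgeR, Traf2, Tnip1 and Ep300 passed an adjusted p below 0.05 (0.0119, 0.0128 and 0.00532), and Ikbkg did not (0.112). Kat2b had 59 and Commd1 44 sorted insertions there (log2 odds ratios -0.15 and -0.32).

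**Figure D5:**
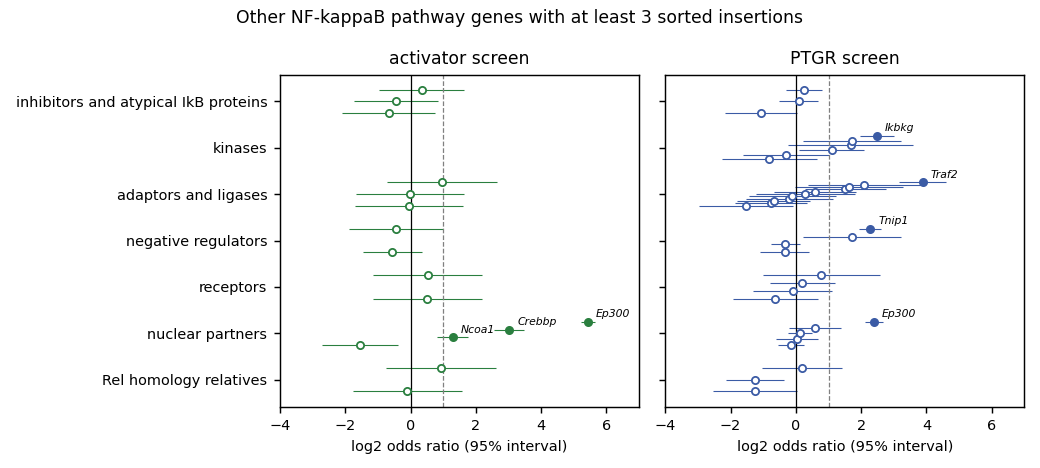
Log2 odds ratio with its 95% interval for each pathway gene with at least 3 sorted insertions, by group, in the activator and PTGR screens. Filled points are called and named, and the dashed line marks a log2 odds ratio of 1. The called genes are Ep300, Crebbp and Ncoa1 in the activator screen and Ikbkg, Traf2, Tnip1 and Ep300 in the PTGR screen.

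The patterns of the 3 called members over the 12 libraries were compared with those of the other genes that had at least 10 activator sorted insertions (362 comparisons), by Pearson correlation of log2(insertions per 10000 + 0.1), as a description. The points share libraries and depth, and the 2 activator sorted libraries hold the highest levels of each called member. How much of the correlation they set was not computed. Counts of 0 enter only through the added 0.1. They occurred at Rela in both repressor sorted libraries and PTGR sorted replicate 2, and at Relb in repressor sorted replicate 1. The genes most like Rela were Gli1 (0.979), Ss18 (0.971) and Foxn1 (0.967), those most like Relb were Pprc1 (0.958), Tfe3 (0.956) and Crebbp (0.950), and those most like Rel were Gcat (0.896), Zfp407 (0.875) and Tox (0.860). All 9 were called in the activator screen, as were 113 of the 363 genes with at least 10 activator sorted insertions (31.1%), and the way they were chosen favours such genes. Between the members the correlation was 0.873 for Rela and Relb, 0.835 for Rela and Rel and 0.809 for Relb and Rel. These pairs were not picked for their correlation, unlike the genes above. Among the 362 genes compared, Relb was number 57 and Rel number 77 for Rela. Rela was number 50 and Rel number 71 for Relb, and Rela was number 12 and Relb number 19 for Rel.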

How the data were processed

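Reads were trimmed (Trim Galore 0.6.0), aligned to mm10 (Bowtie2) and filtered (SAMtools 1.9) by the authors, who gave every insertion the closest downstream exon that has a splice acceptor in a protein-coding GENCODE transcript. The deposited insertion lists (24, one per library and orientation) give positions with assigned exon and distance, and no read number. The 3 deposited tables hold counts of insertions summed over libraries by the authors. They were used for gene names and compared with the counts made here, which were equal for the members except Relb in the PTGR screen (5 deposited, 4 here, a repeated position). Their log2 odds ratio, adjusted p and hit columns hold the authors' own comparisons and were not used.

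Here each position was counted once per library. In the repressor unsorted lists 100% of positions were repeated, and in PTGR sorted replicate 2 12.7%. Over all genes the deposited background counts equalled those made here for 99.1% of genes, and the PTGR sorted counts for 79.3%. With every listed row counted, 76 genes were called in the PTGR screen instead of 62. Fisher's exact tests (scipy 1.17.1) and edgeR 4.0.16 were fitted on all genes and the members read from them. DESeq2 1.42.0 was an alternative. Adjusted p-values are Benjamini-Hochberg. The scripts were tested on simulated data. Comparing 2 with 2 libraries cannot reach p below 0.05 in a two-sided exact permutation test (the smallest is 0.333), so single values carry no such test. Gene and exon positions are from GENCODE vM21 on GRCm38. The members and lists were chosen with earlier results of these data known. One item of the pathway list is not reported here, and the list is therefore not counted for the repressor screen. Named genes are the 5 members, pathway genes called in any screen, the 2 uncalled pathway genes with the most sorted insertions per screen, the 3 genes most like each called member, and the neighbours of at least 10 reversed insertions. Alternatives changed the background libraries, the test, the distance, the counting of positions, the thresholds and the replicates.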

Additional observations from a re-analysis of the deposited data

Results flagged for a closer look

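The enrichment in sorted over unsorted cells differed between screens for 2 of the 5 genes by the interaction test of edgeR over 12 libraries. Rela differed between the activator and repressor screens with an adjusted p of 2.00e-07 and between the activator and PTGR screens with an adjusted p of 0.000397. Relb differed between the same pairs with adjusted p-values of 1.25e-07 and 5.13e-09. In each case both activator sorted libraries were above both sorted libraries of the other screen, 12.6 and 49 per 10000 for Rela against 0 and 0 in the repressor and 0.492 and 0 in the PTGR screen, and 37.9 and 64.6 for Relb against 0 and 1.32 and against 0.164 and 0.512.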

How the results depend on the processing

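Rela and Relb were called in the activator screen under all 22 alternatives that gave each a value, with log2 odds ratios or fold changes from 4.41 to 6.41 for Rela and from 5.03 to 6.65 for Relb, and no member was called in the repressor or PTGR screen under any. The number called in the activator screen ran from 2 to 4, also when 1 library was left out. Rel lost its call at an adjusted p below 0.001 with edgeR without a replicate block (log2 fold change 2.08), with edgeR without a filter on low counts (1.84) and with DESeq2 (1.32), and without activator sorted replicate 2 (log2 odds ratio 1.37). Nfkb2 gained a call when every listed row was counted (5.10), at an adjusted p below 0.05 (4.99), without activator sorted replicate 1 (5.70) and without activator unsorted replicate 1 (5.72). The causes were not tested. The sign turned for Rel in the repressor screen without repressor sorted replicate 1 (leaving out 1 library gave -1.31 to 0.24) and for Nfkb1 in the PTGR screen without PTGR sorted replicate 2 (-1.39 to 0.99), and neither was called under any alternative. Merging positions within 10 bp and the threshold of 0.05 for edgeR and DESeq2 were added after seeing the data.

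With the replicate number as a replicate block, edgeR called 2 members in the activator screen at 0.001 and 3 at 0.05, as without the block, and Rel had a log2 fold change of 2.11. The interaction with the block passed for 2 members against each screen. With or without the block, the fit took the 2 repressor sorted libraries as separate replicates, although they shared 18.2% and 26% of their positions. By the study's methods the unsorted cells of the activator and repressor screens were a portion of the selected cells and the rest were sorted, and whether equal numbers mark 1 transduction is not stated. In the activator screen sorted replicate 2 shared 19.5% of its positions with unsorted replicate 2 and 1.46% with unsorted replicate 1, and sorted replicate 1 shared 4.96% with unsorted replicate 1 and 2.25% with unsorted replicate 2.

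Depth limits the negative results: 0 of 37470 repressor sorted insertions allow up to 0.801 per 10000, above the background level of each member but Rel, and Nfkb2 had 4 background insertions in all.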
